A study of Homo sapiens with 18 samples.

Results

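The genes described here are 10 that build or control the contractile apparatus of smooth muscle and of myofibroblasts, the contractile form that fibroblasts take in wounds and scars. They are ACTA2, ACTG2, TAGLN, CNN1, TPM1, TPM2, CALD1, MYL9, SRF and MKL1, chosen by name. All 10 were found by symbol among the 56269 genes of the deposited table, and all 10 had a mean value of at least 10 and were tested. The table holds RNA-Seq of IMR90 cells, human primary lung fibroblasts grown with fetal bovine serum. The study asked whether very long hyaluronan (HA), a sugar polymer of the extracellular matrix, changes how fibroblasts respond to oxidative stress. For 6 h before any exposure, the medium held either PBS or 20 µg/ml of HA made by naked mole-rat skin fibroblasts. cNSF-HA was the control preparation, which was heated with inactivated hyaluronidase, and fNSF-HA was partly fragmented by the active enzyme before heating. The medium with HA or PBS was then removed, and 9 of the 18 libraries came from cells exposed for 1 h to 200 µM tert-butyl hydroperoxide (tBHP), an organic peroxide. Each of the 6 groups had 3 libraries. The cells are called PBS, cNSF and fNSF cells after their pre-incubation. Cells without tBHP were collected when the pre-incubation ended, and cells with tBHP were collected 6 h after the exposure began. The effect of tBHP and that of the later collection therefore cannot be told apart, and "after tBHP" below covers both.

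Smooth muscle alpha-actin, encoded by ACTA2, is the classic marker of myofibroblasts, in which it is built into stress fibres together with tropomyosin, caldesmon, calponin and transgelin. Phosphorylation of the regulatory light chain encoded by MYL9 lets non-muscle and smooth muscle myosin pull on these fibres. Many of these genes are transcribed under the control of serum response factor (SRF), which binds a short AT-rich element called the CArG box. The cofactor MRTF-A, encoded by MKL1, is held in the cytoplasm by actin monomers and joins SRF in the nucleus when actin polymerizes.

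Promoter sequences of ACTG2, SRF and ACTA2 are shown because the CArG box, through which SRF acts, occurs in them in different forms. They come from RefSeq (GRCh38.p14) and cover 250 bases before and 50 after a transcription start, read 5′ to 3′ on the gene's strand. Capitals mark each CArG box with up to 1 mismatch, and positions below count back from the start.
ACTG2, chr2:73892758-73893057, plus strand: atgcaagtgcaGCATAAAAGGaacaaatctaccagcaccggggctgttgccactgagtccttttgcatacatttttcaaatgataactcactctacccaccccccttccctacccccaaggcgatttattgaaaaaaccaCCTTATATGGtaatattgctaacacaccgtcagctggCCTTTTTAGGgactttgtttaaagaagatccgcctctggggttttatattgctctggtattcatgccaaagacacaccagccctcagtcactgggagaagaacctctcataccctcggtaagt
SRF, chr6:43171019-43171318, plus strand: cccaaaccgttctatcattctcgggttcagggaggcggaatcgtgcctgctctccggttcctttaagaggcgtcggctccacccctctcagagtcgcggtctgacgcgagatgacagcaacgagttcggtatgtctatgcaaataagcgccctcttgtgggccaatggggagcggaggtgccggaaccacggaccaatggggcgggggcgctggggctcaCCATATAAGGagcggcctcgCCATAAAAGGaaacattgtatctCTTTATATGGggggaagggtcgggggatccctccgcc
ACTA2, chr10:88952724-88953023, minus strand: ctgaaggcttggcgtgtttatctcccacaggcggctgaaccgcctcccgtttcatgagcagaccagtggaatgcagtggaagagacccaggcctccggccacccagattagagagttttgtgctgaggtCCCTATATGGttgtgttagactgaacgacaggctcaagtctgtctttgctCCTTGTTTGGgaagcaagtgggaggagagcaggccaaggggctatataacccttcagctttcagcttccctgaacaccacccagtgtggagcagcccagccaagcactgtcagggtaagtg
The ACTG2 promoter held 2 exact CArG boxes, CCTTATATGG from -110 to -101 and CCTTTTTAGG from -73 to -64. It also held a box with 1 mismatch from -239 to -230. The SRF promoter held 2 exact boxes, CCATATAAGG from -30 to -21 and CCATAAAAGG from -10 to -1, and a box with 1 mismatch from 14 to 23 past the start. In the ACTA2 promoter both boxes had 1 mismatch, CCCTATATGG from -121 to -112 and CCTTGTTTGG from -71 to -62, and the MCAT element CATTCC lay on the other strand from -183 to -178. RefSeq promoters were at hand for 8 of the 10 genes, with 16 sequences in all, and were not used for TAGLN and MYL9. None of the 16 sequences other than these of ACTG2 and SRF held an exact CArG box. Among all 35116 promoter windows of the same length, 1.29% held an exact box and 18.9% a box with up to 1 mismatch. For other motifs, 14% of all windows held CATTCC and 7.71% the AP-1 site TGANTCA, both searched on both strands. TATAAA, searched on the gene's strand only, was held by 7.33%. Of the 4 CALD1 windows, 2 held a CArG box with 1 mismatch, 2 held CATTCC, 1 held an AP-1 site and 1 held TATAAA. The other ACTA2 window, chr10:88991288-88991587, held no CArG box with up to 1 mismatch. These are matches of letters within a short window and were not measured as bound sites.

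In the unexposed cells the contractile genes were expressed at very different levels. Per kilobase of all annotated exons, TPM2 had the highest level in PBS cells, 8318 ± 162 normalized counts per kb (SD, n = 3), followed by TAGLN with 7221 ± 249. MYL9 had 4664 ± 76.3 and TPM1 4246 ± 75.7 normalized counts per kb. ACTA2 had 2472 ± 98.4, CALD1 2062 ± 74.5 and ACTG2 1644 ± 61.5 normalized counts per kb. The regulators were lower, with 608 ± 11.8 for SRF and 206 ± 4.54 for MKL1, and CNN1 lay between them with 393 ± 21.7 normalized counts per kb. When the longest transcript was used as the length, TPM2 remained first and MKL1 last, while TPM1 moved from rank 4 to rank 2. The 10 genes took 0.731% to 0.751% of all reads on genes in the libraries without tBHP and 0.564% to 0.777% in those with tBHP.

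The cells carried the markers of fibroblasts. All 12 fibroblast markers examined, such as COL1A1, VIM and THY1, had a mean of at least 10 normalized counts in every group, and their sum lay between 654027 and 938781 in the 18 libraries. The 6 leukocyte markers examined had together at most 19.0 normalized counts in any library. Of 8 epithelial and 6 endothelial markers, 5 and 4 to 5 had a group mean under 10. MYH11, the heavy chain of mature smooth muscle myosin, had at most 5.88 normalized counts in any library, while MYOCD, the cofactor of SRF known from the smooth muscle lineage, had 1526 ± 27.5 (SD, n = 3) in PBS cells. Of 9 striated muscle markers, 4 in PBS cells and 6 in each of the other 5 groups had a group mean under 10, and the myogenic factors MYOD1 and MYOG were at 0 in all 18 libraries. PBS replicate 1 stood apart in this list: it held 80.1 normalized counts of MYH6 and 59.9 of MYH7, the cardiac myosin heavy chains, which were at 0 in the other 17 libraries, and 26.1 of TNNT2 and 12.6 of TNNI3, the cardiac troponins, which had at most 2.19 elsewhere. The summed level of the list was 597 in that library and 305 to 466 in the others, most of it from ACTC1, with 280 to 418 in every library. Without PBS replicate 1, the same number of the 10 contractile genes, 6, had an adjusted p under 0.05 in limma for tBHP in PBS cells. With all libraries 51.1% of all genes did so, and the share without this library is not given. ACTA2 changed by -0.44 without it against -0.47 on the log2 scale. None of the 10 passed in cNSF or fNSF against PBS cells without tBHP, with or without that library. In these bulk samples, fewer cells of a type and less RNA per cell cannot be told apart. Reads on genes ranged from 20261103 to 26287660 per library. Replicates of exposed cells were more variable, with a median SD over genes of 0.206 on the log2 scale against 0.0761 without tBHP, and fNSF replicates 2 and 3 after tBHP stood apart from each other, as described below. After tBHP, cNSF replicate 3 also differed more from the other cNSF libraries than those did from each other.

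After tBHP the genes of the contractile apparatus did not move as 1 block. ACTA2, TPM1, CALD1 and SRF were lower than without tBHP in all 3 pre-incubations. TPM2 and MKL1 were higher in PBS and cNSF cells, and MYL9 was higher in cNSF cells. TAGLN and CNN1 did not pass the test in any pre-incubation, and ACTG2 was lower in fNSF cells with an adjusted p of 0.0405. The test was limma on log2(normalized count + 1), with Benjamini-Hochberg adjustment over 13686 genes, and every adjusted p below comes from this test unless another tool is named. With the trend of transcript GC content and length removed, as given below, several of these calls differed. ACTG2 and CNN1 were then lower in all 3 pre-incubations, and TAGLN in PBS and fNSF cells. MYL9 passed in none of them, while TPM2 and MKL1 kept their higher direction.

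**Figure D1:**
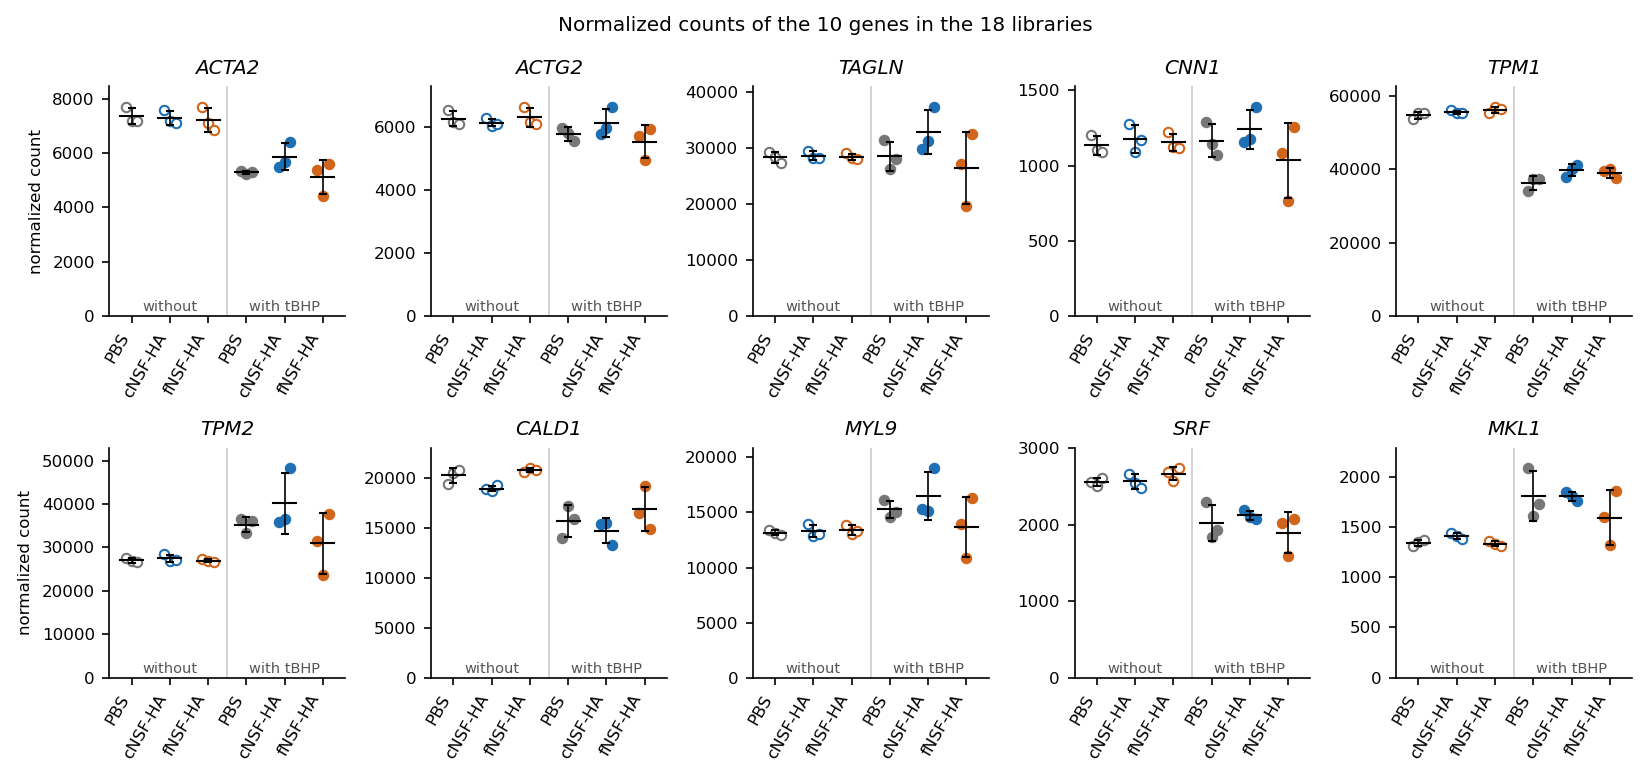
Normalized counts (y axis, linear, from 0) of the 10 genes in the 18 libraries, with open points for cells without tBHP and filled points for cells with tBHP. Horizontal lines mark the mean of each group and error bars the SD (n = 3). The filled points of ACTA2, TPM1, CALD1 and SRF lie below the open points of the same pre-incubation, and the fNSF points after tBHP are spread most widely for TAGLN, CNN1, TPM2 and MYL9.

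Of the 10 genes, 2 were higher and 4 lower after tBHP when PBS had been given. Of all genes tested, 51.1% passed the test in this comparison, 24.2% higher and 26.9% lower, so the total of 6 was near the share of all genes. With cNSF, 3 were higher and 4 lower, where 50.8% of all genes passed, 24% higher and 26.8% lower. With fNSF, 0 were higher and 5 lower, where 41.9% of all genes passed, 19.2% higher and 22.7% lower. The libraries with and without tBHP did not overlap for 8, 8 and 5 of the 10 genes in PBS, cNSF and fNSF cells, which was so for 63.8%, 63.7% and 48.7% of all genes. Over the 3 pre-incubations, 4 of the 10 were lower in each, as were 17.9% of all genes, and 0 of the 10 were higher in each, as were 14.6% of all genes. The median log2 changes of the 10 genes in PBS, cNSF and fNSF cells were -0.05, 0.03 and -0.19, beside 0.0043, -0.00053 and -0.03 for all genes tested. The DESeq2 test on the recovered reads called 6, 7 and 6 of the 10 in the same order, beside 52.5%, 52% and 43.1% of all genes. The edgeR test called 7, 6 and 5, beside 53.2%, 52.6% and 43.2%. With the trend of transcript GC content and length removed by a spline over all genes, 8, 7 and 8 of the 10 passed, beside 57.8%, 56.6% and 56.1% of all genes. Lower among these were ACTA2, ACTG2, TPM1, CALD1, CNN1 and SRF in each pre-incubation, and TAGLN in PBS and fNSF cells. TPM2 in PBS and cNSF cells and MKL1 in fNSF cells were higher. Of all 12789 genes in this fit, 3770, 3627 and 3650 were lower and 3617, 3606 and 3519 higher. Without cNSF replicate 3 and fNSF replicate 2 with tBHP, 8, 7 and 7 passed, beside 62.3%, 54.9% and 55.4% of all genes.

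**Figure D2:**
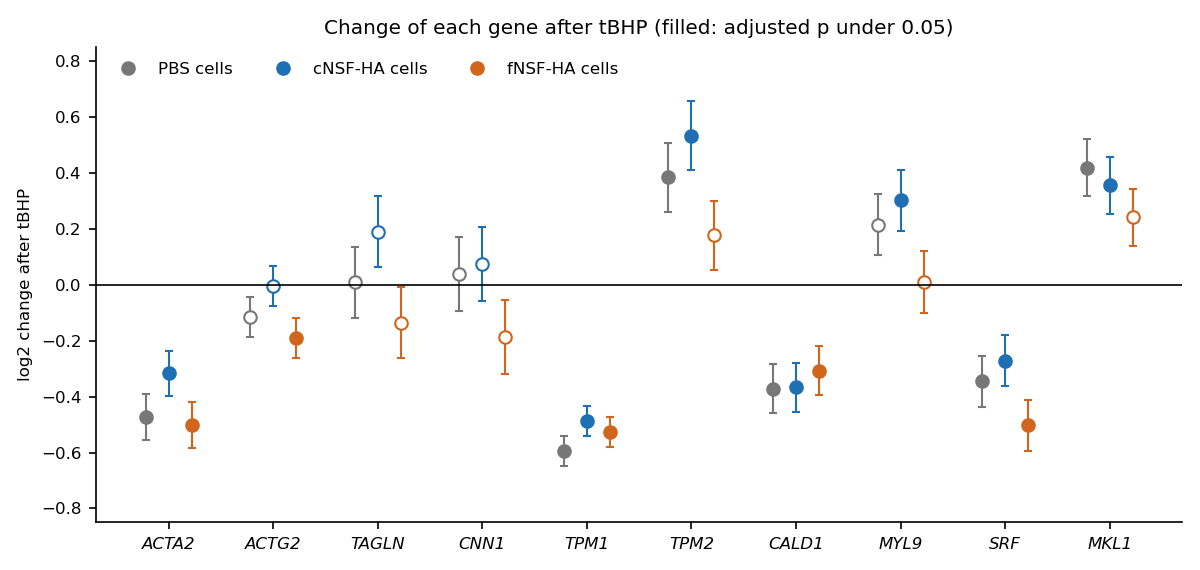
Log2 change after tBHP (y axis) of each gene in PBS, cNSF and fNSF cells, with error bars of 1 standard error from limma (3 libraries against 3). Filled points passed the test. ACTA2, TPM1, CALD1 and SRF lie below 0 in each pre-incubation, TPM2 and MKL1 lie above 0 in each, and TAGLN and CNN1 lie on both sides of 0.

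The smooth muscle actins differed from each other. ACTA2 had 7696, 7198 and 7180 normalized counts in PBS cells and 5334, 5240 and 5323 after tBHP. In cNSF cells ACTA2 had 7579, 7203 and 7105 normalized counts, and 5498, 5680 and 6426 after tBHP. In fNSF cells it had 7705, 7122 and 6859, and 5376, 4410 and 5599 after tBHP. All 9 libraries with tBHP lay below all 9 without, and the library nearest to the unexposed ones was cNSF replicate 3. ACTA2 fell by 27.9% in PBS cells (log2 change -0.47, standard error 0.081, adjusted p = 0.000111). In cNSF cells it fell by 19.7% (log2 change -0.32, standard error 0.081, adjusted p = 0.00355), and in fNSF cells it fell by 29.3% (log2 change -0.50, standard error 0.081, adjusted p = 8.14e-05). With the trend of transcript GC content and length removed, the cNSF change was -0.56. ACTG2, the gamma-actin of visceral smooth muscle, had 6535, 6157 and 6106 normalized counts in PBS cells and 5976, 5813 and 5548 after tBHP. In cNSF cells the values of ACTG2 were 6273, 6044 and 6094, and 5775, 5973 and 6619 after tBHP, so these groups overlapped. In fNSF cells ACTG2 had 6634, 6167 and 6101 normalized counts, and 5724, 4949 and 5937 after tBHP. The log2 changes of ACTG2 were -0.12, -0.0057 and -0.19 in PBS, cNSF and fNSF cells, each with a standard error of 0.071 and with adjusted p-values of 0.184, 0.952 and 0.0405. With the GC and length trend removed they were -0.29, -0.22 and -0.32, and all 3 passed the test (adjusted p at most 4.98e-05). The fNSF change of ACTG2 was -0.11 and did not pass (adjusted p = 0.166) when fNSF replicate 2 with tBHP was left out, and it did not pass without any one of the 3 fNSF libraries that had no tBHP (adjusted p = 0.16, 0.0666 and 0.0557). Nor did it pass with edgeR (-0.13, adjusted p = 0.193), with no filter (adjusted p = 0.104) or with only the groups compared (adjusted p = 0.14).

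Of the tropomyosins, which lie along the actin filament and set which myosins and binding proteins reach it, TPM1 was lower after tBHP in all 3 pre-incubations and TPM2 was higher in PBS and cNSF cells. TPM1 had 53547, 55144 and 55316 normalized counts in PBS cells, and 34013, 37231 and 37358 after tBHP. In cNSF cells TPM1 had 55941, 55196 and 55232 normalized counts, and 37878, 39926 and 41072 after tBHP. In fNSF cells it had 55137, 56907 and 56241, and 39405, 39886 and 37464 after tBHP. The highest TPM1 library with tBHP lay well below the lowest without. TPM1 fell by 33.8% in PBS cells (log2 change -0.60, standard error 0.054, adjusted p = 7.64e-08). In cNSF cells TPM1 fell by 28.6% (log2 change -0.49, standard error 0.054, adjusted p = 1.02e-06) and in fNSF cells it fell by 30.6% (log2 change -0.53, standard error 0.054, adjusted p = 4.18e-07). TPM2 had 27619, 26796 and 26640 normalized counts in PBS cells, and 36555, 33250 and 36017 after tBHP. In cNSF cells TPM2 had 28424, 26907 and 27174, and 35773, 36533 and 48208 after tBHP. In fNSF cells TPM2 had 27256, 26860 and 26642 normalized counts, and 31558, 23684 and 37670 after tBHP. The fNSF groups of TPM2 overlapped because replicate 2 lay below the libraries without tBHP. TPM2 had log2 changes of 0.38, 0.53 and 0.18 in PBS, cNSF and fNSF cells (standard error 0.12), with adjusted p-values of 0.0153, 0.00168 and 0.273. Without PBS replicate 1 with tBHP, the PBS change of TPM2 missed the threshold (0.36, adjusted p = 0.0504), and without fNSF replicate 2 with tBHP the fNSF change passed it (0.36, adjusted p = 0.0044). These changes of TPM2 were smaller, 0.15, 0.23 and 0.038, with the GC and length trend removed. After quantile normalization the PBS change of TPM2 did not pass (0.11, adjusted p = 0.442), and that of fNSF cells was -0.019.

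CALD1 encodes caldesmon, which binds actin and tropomyosin and restrains the myosin ATPase. In PBS cells CALD1 had 19464, 20573 and 20849 normalized counts, and 14032, 17253 and 15894 after tBHP. In cNSF cells it had 18896, 18722 and 19290, and 15418, 15536 and 13282 after tBHP. In fNSF cells CALD1 had 20609, 20990 and 20794 normalized counts, and 16513, 19267 and 14928 after tBHP. No library with tBHP reached the unexposed libraries of its own pre-incubation, though fNSF replicate 2 came close. CALD1 changed by log2 values of -0.37, -0.37 and -0.31 in PBS, cNSF and fNSF cells (standard error 0.087), with adjusted p-values of 0.00175, 0.00204 and 0.00873. Its transcripts had the lowest GC content of the 10 genes, 41.6%, and with the GC and length trend removed the changes were -0.10, -0.10 and -0.16. They still passed the test (adjusted p = 0.0379, 0.0365 and 0.00165).

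TAGLN encodes transgelin, an actin-binding protein of smooth muscle, and CNN1 encodes calponin 1, which binds actin and restrains myosin. TAGLN had 29258, 28289 and 27308 normalized counts in PBS cells, and 31332, 26252 and 27935 after tBHP. In cNSF cells TAGLN had 29483, 28236 and 28151 normalized counts, and 29879, 31185 and 37304 after tBHP. In fNSF cells it had 29078, 28108 and 27981, and 27044, 19612 and 32552 after tBHP. The cNSF libraries with tBHP all lay above those without, the other groups overlapped, and the fNSF libraries with tBHP lay on both sides of the unexposed ones. The log2 changes of TAGLN were 0.0079, 0.19 and -0.14 in PBS, cNSF and fNSF cells, with a standard error of 0.13 and adjusted p-values of 0.966, 0.221 and 0.418. CNN1 had 1206, 1106 and 1090 normalized counts in PBS cells, and 1288, 1142 and 1069 after tBHP. In cNSF cells CNN1 had 1275, 1091 and 1169, and 1156, 1180 and 1391 after tBHP. In fNSF cells CNN1 had 1222, 1123 and 1118 normalized counts, and 1081, 766 and 1256 after tBHP. All 3 pairs of groups overlapped for CNN1. Its log2 changes were 0.04, 0.07 and -0.19, with a standard error of 0.13 and adjusted p-values of 0.833, 0.661 and 0.279. The directions of both genes depended on the processing. With the GC and length trend removed CNN1 was lower in all 3 pre-incubations (-0.24, -0.28 and -0.29, adjusted p at most 0.000553), and TAGLN was lower in PBS and fNSF cells (-0.22 and -0.21, adjusted p = 0.00274 and 0.00418). Without fNSF replicate 3 with tBHP, CNN1 and TAGLN were lower in fNSF cells (-0.34 and -0.30, adjusted p = 0.0321 and 0.0339).

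MYL9 encodes the regulatory light chain that, once phosphorylated, switches myosin II on. MYL9 had 13387, 13120 and 12961 normalized counts in PBS cells, and 16141, 14617 and 15077 after tBHP. In cNSF cells MYL9 had 13921, 12902 and 13047 normalized counts, and 15300, 15116 and 19006 after tBHP. In fNSF cells it had 13896, 13054 and 13300, and 13962, 10832 and 16275 after tBHP. The PBS and cNSF groups did not overlap their unexposed counterparts, whereas the fNSF libraries after tBHP lay both below and above theirs. The log2 changes of MYL9 were 0.21, 0.30 and 0.0096 in PBS, cNSF and fNSF cells (standard error 0.11), with adjusted p-values of 0.11, 0.028 and 0.953. The change in cNSF cells missed the threshold without cNSF replicate 3 with tBHP (0.20, adjusted p = 0.159) and without replicate 2 or replicate 3 of the unexposed cNSF cells (adjusted p = 0.082 and 0.0745). It also missed it with quantile normalization (0.17, adjusted p = 0.132) and with no filter (adjusted p = 0.0679). The change of MYL9 in PBS cells, on the other hand, passed under 3 of the alternatives. With the GC and length trend removed the changes of MYL9 were -0.0695, -0.015 and -0.052, and none of these 3 passed the test (adjusted p = 0.218, 0.811 and 0.369).

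In PBS and cNSF cells the transcription factor SRF was lower after tBHP and its cofactor gene MKL1 was higher. SRF had 2554, 2506 and 2605 normalized counts in PBS cells, and 2290, 1837 and 1933 after tBHP. In cNSF cells SRF had 2668, 2539 and 2483 normalized counts, and 2187, 2104 and 2077 after tBHP. In fNSF cells it had 2687, 2568 and 2735, and 2020, 1583 and 2072 after tBHP. All 9 libraries with tBHP lay below all 9 without. The log2 changes of SRF were -0.35, -0.27 and -0.50 in PBS, cNSF and fNSF cells (standard error 0.092), with adjusted p-values of 0.00451, 0.0199 and 0.00026. The change in cNSF cells missed the threshold without cNSF replicate 1 (-0.24, adjusted p = 0.071), without cNSF replicate 3 with tBHP (-0.26, adjusted p = 0.0519) and with edgeR (-0.21, adjusted p = 0.0728). With the GC and length trend removed the changes of SRF were -0.64, -0.55 and -0.54. MKL1 had 1309, 1352 and 1366 normalized counts in PBS cells, and 2082, 1608 and 1728 after tBHP. In cNSF cells MKL1 had 1440, 1408 and 1380, and 1850, 1807 and 1755 after tBHP. In fNSF cells MKL1 had 1362, 1330 and 1309 normalized counts, and 1602, 1316 and 1859 after tBHP. PBS replicate 1 was the highest library of MKL1, and fNSF replicate 2 was the lone library with tBHP within the range of those without. The log2 changes of MKL1 were 0.42, 0.36 and 0.24 in PBS, cNSF and fNSF cells (standard error 0.10), with adjusted p-values of 0.00233, 0.00742 and 0.0663. Without fNSF replicate 2 with tBHP the fNSF change of MKL1 was 0.37 (adjusted p = 0.00138). With the GC and length trend removed the changes of MKL1 were 0.12, 0.083 and 0.21, of which the fNSF value passed the test (adjusted p = 0.00144). In all, the fNSF change passed under 6 of the alternatives.

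Ratios of counts within a library do not depend on how libraries were scaled, and 3 pairs of related genes were compared in this way after their values had been seen. The ratio of ACTA2 to ACTG2, genes of similar transcript GC content (51.8% and 52.6%), ran from 1.12 to 1.21 in the 9 libraries without tBHP and from 0.891 to 0.971 in the 9 with tBHP. ACTA2 thus gave more counts than ACTG2 in every library without tBHP and fewer in every library with it. The mean log2 change of this ratio was -0.33 and was -0.34 with the GC and length trend removed. The ratio of MKL1 to SRF (GC content 61.3% and 61%) ran from 0.479 to 0.556 without tBHP and from 0.793 to 0.909 with tBHP, a mean log2 change of 0.71, which was also 0.71 with the trend removed. The ratio of TPM1 to TPM2 ran from 1.94 to 2.12 without tBHP and from 0.852 to 1.68 with tBHP, a mean log2 change of -0.90. The tropomyosin genes differ in GC content (45.9% and 55.3%), and with the trend removed this change was -0.64. The pairs were picked for their different responses, so these values are a description with no test. The actin comparison counts the reads of near-identical paralogs, and how multi-mapped reads were treated is not given in the sources used here.

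**Figure D3:**
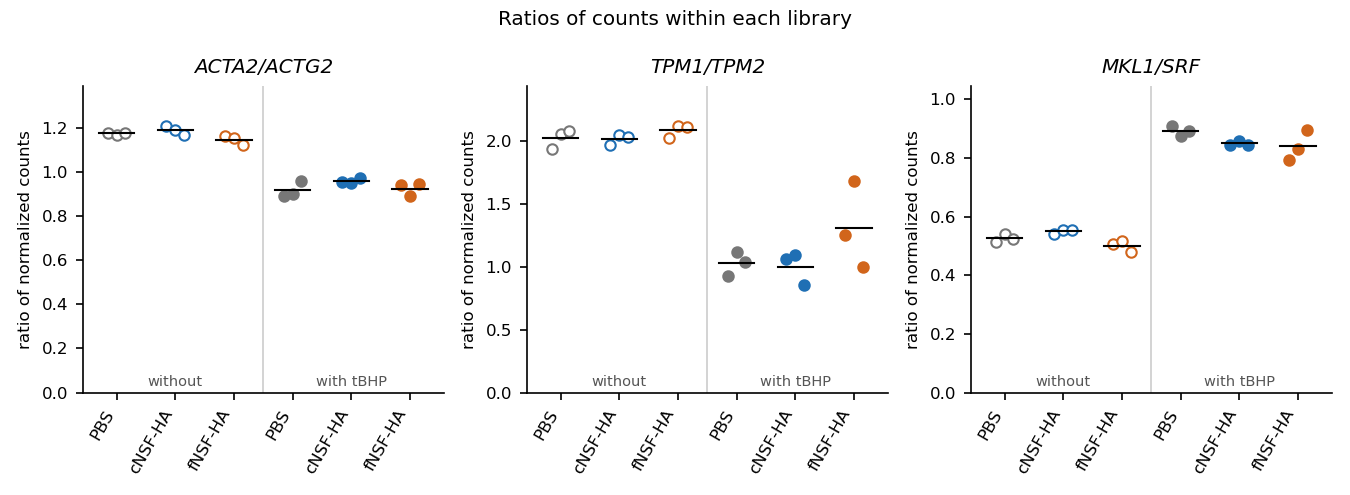
Ratio of normalized counts (y axis, linear, from 0) of 3 gene pairs in each of the 18 libraries, with the mean of each group as a line, open points without tBHP and filled points with tBHP. For each pair no library with tBHP falls within the range of the libraries without, and the fNSF libraries after tBHP spread most in the ratio of TPM1 to TPM2.

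Whether HA and its polymer length changed these genes was compared within each arm. The HA comparisons share the PBS or HA libraries with one another and are not independent. Without tBHP, limma called 0 of the 10 genes in any of the 3 comparisons, edgeR and DESeq2 also called 0, and 0 had an unadjusted p under 0.05. The share of all genes called by limma in each of these comparisons was 0%, and 0.921%, 0.796% and 1.5% of all genes had an unadjusted p under 0.05 for cNSF against PBS, fNSF against PBS and cNSF against fNSF. Log2 differences ranged from -0.10 to 0.07 for cNSF against PBS, from -0.03 to 0.06 for fNSF against PBS and from -0.13 to 0.08 for cNSF against fNSF. CALD1 had the lowest value in both comparisons of cNSF cells. Its cNSF libraries lay below all 3 PBS and all 3 fNSF libraries, with log2 differences of -0.10 (95% interval -0.28 to 0.09) and -0.13 (-0.32 to 0.05). MKL1 lay above in both comparisons, by 0.07 (-0.14 to 0.28) and 0.08 (-0.13 to 0.29). Libraries did not overlap for 2 of the 10 genes in both comparisons, where this was so for 15.2% and 25% of all genes. When the fit was limited to the 6 HA libraries without tBHP, which do not share in the larger spread of the exposed cells, CALD1 passed the test (adjusted p = 0.00106), and 7.16% of all genes did so.

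After tBHP, limma called 0 of the 10 genes in each of the comparisons between pre-incubations, as did edgeR and DESeq2. Of all genes, limma called 0% for cNSF against PBS, 0.139% for fNSF against PBS and 0% for cNSF against fNSF, where DESeq2 called 5.79%. Unadjusted p-values were under 0.05 for 1, 0 and 6 of the 10 genes in this order, and for 8.64%, 22.7% and 32.2% of all genes. TPM1 was the 1 gene of the first comparison, with a log2 difference of 0.13 (95% interval 0.02 to 0.24, adjusted p = 0.558) and all 3 cNSF libraries above the PBS ones. ACTA2 had a log2 difference of 0.14 between cNSF and PBS cells (95% interval -0.03 to 0.32, adjusted p = 0.622), also with no overlap. This value leaned on cNSF replicate 3, which had 6426 normalized counts beside 5498 and 5680 in the other cNSF libraries. Libraries did not overlap for 2 of the 10 genes here, and for 9.57% of all genes. Against PBS, the fNSF values were between -0.21 for TPM2 and 0.11 for TPM1 (adjusted p from 0.247 to 0.701). In that comparison TPM1 was the 1 gene without overlap, beside 12% of all genes.

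When the exposed cNSF and fNSF cells were compared, 9 of the 10 genes had higher means with cNSF, with CALD1 as the exception, and adjusted p-values lay between 0.0981 and 0.756. The differences were 0.39 for TPM2 (95% interval 0.13 to 0.65), 0.34 for TAGLN (0.07 to 0.60), 0.29 for CNN1 (0.0096 to 0.57) and 0.28 for MYL9 (0.05 to 0.51). ACTA2 differed by 0.20 (0.03 to 0.37), MKL1 by 0.19 (-0.02 to 0.41), SRF by 0.18 (-0.02 to 0.37) and ACTG2 by 0.15 (-0.0033 to 0.30). TPM1 differed by 0.03 (-0.09 to 0.14) and CALD1 by -0.19 (-0.38 to -0.0089). The median over the 10 genes was 0.20, beside -0.03 for all genes tested. The intervals given after tBHP use a spread shared with the less variable unexposed libraries, so they may be too narrow for the exposed cells. When the fit was limited to the groups compared, 1001 of 13686 genes had an unadjusted p under 0.05, against 4412 with all libraries. Neither fit called any gene for cNSF against fNSF cells after tBHP. SRF was the 1 gene whose libraries did not overlap, beside 13.4% of all genes. The calls depended on which of the fNSF libraries was used. When replicate 3 of the fNSF cells with tBHP was left out, 9 of the 10 genes passed the test, 8 of them higher in cNSF cells, when 40.8% of all genes did. The largest values were then 0.54 for TPM2 (adjusted p = 0.00211) and 0.50 for TAGLN (adjusted p = 0.00274). Without fNSF replicate 2 after tBHP, 0 of the 10 passed in limma's test and 0% of all genes did, with 0.21 for TPM2 and 0.14 for TAGLN. With cNSF replicate 3 left out as well, the differences lay between -0.021 for CALD1 and 0.083 for MKL1, and ACTA2 differed by 0.026. Both libraries were picked after the values were seen. For TPM2, TAGLN, MYL9 and ACTA2 they were the highest cNSF and the lowest fNSF library with tBHP. Leaving them out therefore brings these differences towards 0 by construction, and no conclusion is drawn from it. In the same way, CNN1, MKL1, MYL9, TAGLN and TPM2 passed as lower in fNSF than in PBS cells when fNSF replicate 3 was left out (-0.30 to -0.37), when 29.4% of all genes passed.

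**Figure D4:**
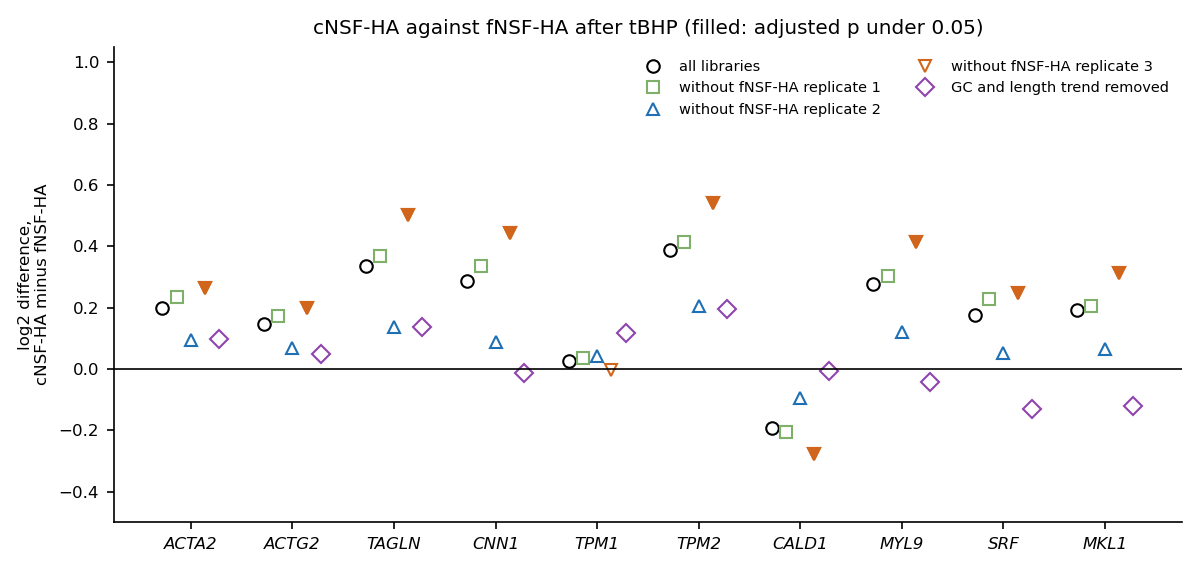
Log2 difference between cNSF and fNSF cells after tBHP (y axis) for each gene with all libraries, without each fNSF library with tBHP in turn, and with the trend of transcript GC content and length removed. Filled symbols passed the test. Filled symbols occur where fNSF replicate 3 was left out, and the values without replicate 2 are nearer to 0 than with all libraries for 9 genes.

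Differences between the tBHP responses of the pre-incubations were tested as interactions. Limma called 0 of the 10 genes in all 3 interactions, edgeR and DESeq2 also called 0, 0 had an unadjusted p under 0.05, and 0% of all genes were called by limma. Of all genes, 4.05%, 6.88% and 3.89% had an unadjusted p under 0.05 for cNSF against PBS, fNSF against PBS and cNSF against fNSF. The differences between responses ranged from -0.06 to 0.18 for cNSF against PBS, from -0.22 to 0.07 for fNSF against PBS and from -0.06 to 0.36 for cNSF against fNSF. A response that passed in one pre-incubation and missed the threshold in another, as for ACTG2, TPM2, MYL9 and MKL1, was thus not shown to differ between them.

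Within the groups after tBHP, the 10 genes deviated from their group means in ways that went with transcript GC content in some libraries. From CALD1 (41.6%) and TPM1 (45.9%) the GC content rose to SRF (61%) and MKL1 (61.3%). In fNSF replicate 2, deviations ran from -0.40 to 0.20 on the log2 scale, with Pearson's r of -0.87 with GC content across the 10 genes. In fNSF replicate 3 they ran from -0.17 to 0.33, with r of 0.86. PBS replicate 1 after tBHP had r of 0.96 and PBS replicate 2 had r of -0.90, with deviations from -0.16 to 0.21 and from -0.16 to 0.14. In the cNSF libraries after tBHP r lay between -0.61 and 0.39, and the deviations between -0.15 and 0.28. Across the 12789 genes tested that have a GC value, r was -0.77 in fNSF replicate 2, 0.74 in fNSF replicate 3, 0.56 in PBS replicate 1 and -0.41 in PBS replicate 2, all with tBHP, and between -0.15 and 0.17 in the libraries without tBHP. Genes within 1 library share its depth and preparation and are not independent replicates, so these values of r are descriptions. Without tBHP the deviations of the 10 genes were smaller, between -0.11 and 0.12, while r ran from -0.75 in cNSF replicate 3 to 0.69 in cNSF replicate 1. The part of this trend in the responses of single genes was not tested beyond the values with the trend removed.

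**Figure D5:**
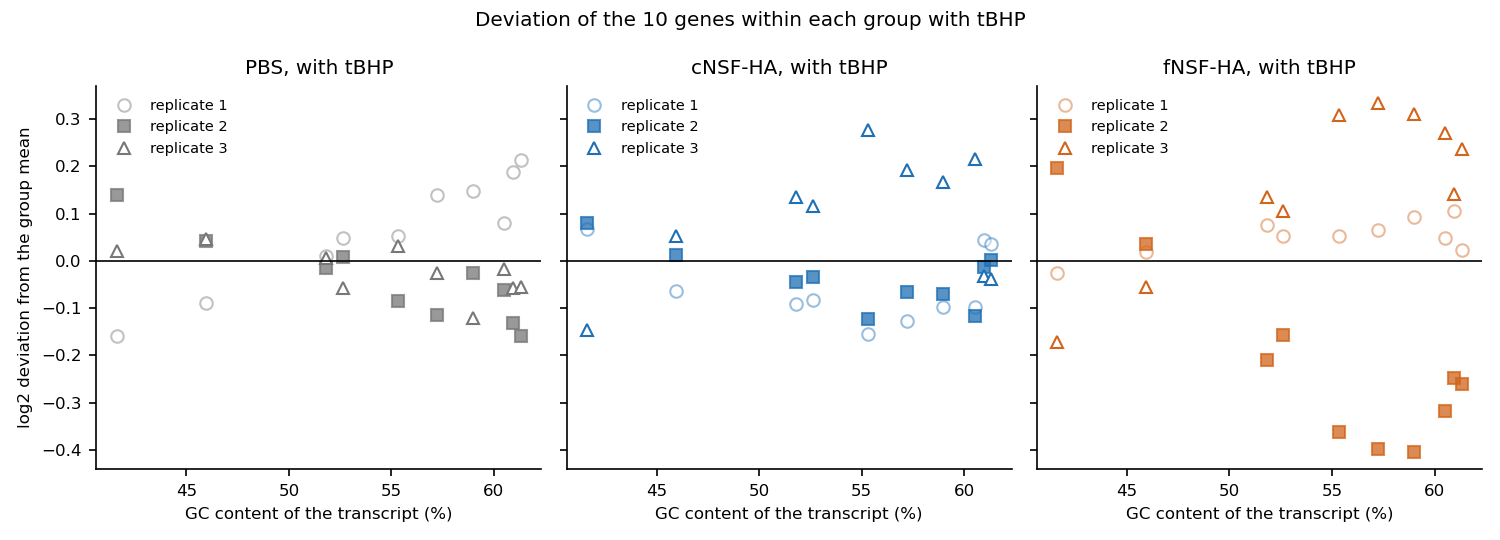
Deviation of each of the 10 genes from its group mean (y axis, log2) against the GC content of its transcripts (x axis, %) in the 3 groups with tBHP, 1 symbol per replicate. In fNSF cells replicate 2 runs from 0.20 for CALD1, at the lowest GC content, to -0.40 for CNN1, and replicate 3 lies above 0 for the genes above 50% GC, while the cNSF replicates lie between -0.15 and 0.28.

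Other genes of the same machinery were counted in lists written with earlier results of these data known. For each list below, the shares of all genes to compare with in PBS, cNSF and fNSF cells are 24.2%, 24% and 19.2% higher and 26.9%, 26.8% and 22.7% lower, with medians of 0.0043, -0.00053 and -0.03. Of 20 tested actomyosin and thin filament genes, 2, 4 and 1 were higher after tBHP in PBS, cNSF and fNSF cells, and 7, 7 and 10 were lower. Under the alternatives the number higher ran from 1 to 5, 1 to 5 and 0 to 4, and the number lower from 6 to 12, 6 to 11 and 8 to 11. The median log2 change of this list was -0.14, -0.13 and -0.26. LMOD1, which encodes leiomodin 1, an actin filament nucleator of smooth muscle, fell from 380 ± 22 to 128 ± 25.4 normalized counts in PBS cells (log2 change -1.58, adjusted p = 6.52e-08). MYLK, the kinase that phosphorylates the light chain encoded by MYL9, fell from 4285 ± 179 to 1975 ± 130 (log2 change -1.12, adjusted p = 2.15e-07). The log2 changes in cNSF and fNSF cells were -1.68 and -1.70 for LMOD1, and -1.39 and -1.20 for MYLK. The genes higher in PBS cells were DES, which encodes the muscle intermediate filament desmin, at 17.2 ± 3.69 and then 29.5 ± 3.88 normalized counts, and TPM3, with a log2 change of 0.20.

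Of 20 stress fibre and focal adhesion genes known as targets of MRTF and SRF, 2, 3 and 1 were higher after tBHP and 6, 8 and 8 lower, in the same order. The 6 lower in PBS cells were near the share of all genes. Under the alternatives the number higher ran from 1 to 7, 2 to 6 and 0 to 3, and the number lower from 6 to 11, 7 to 11 and 7 to 10. ANKRD1, an ankyrin repeat protein induced by mechanical load, fell from 661 ± 41.9 to 90.8 ± 15.2 normalized counts in PBS cells (log2 change -2.86, adjusted p = 5.70e-10). The matricellular genes CTGF and THBS1 changed by -0.91 (adjusted p = 1.16e-10) and -0.88 (adjusted p = 1.38e-06). FHL2 (0.23) and TGFB1I1 (0.40), which encode LIM domain proteins, were the 2 that were higher. The median log2 change of this list was -0.14, -0.16 and -0.20 in the 3 pre-incubations.

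Of 20 genes of TGF-beta signalling and the myofibroblast state, 3, 3 and 3 were higher and 9, 9 and 6 lower in PBS, cNSF and fNSF cells, with median log2 changes of -0.24, -0.20 and -0.14. Under the alternatives the number higher ran from 3 to 7, 3 to 9 and 2 to 6, and the number lower from 7 to 12, 8 to 10 and 5 to 10. The higher ones in PBS cells were TGFB1 (0.77), SMAD7 (0.67) and SMAD3 (0.37). TGFB2 (-0.99, adjusted p = 0.000306) and LOX (-0.81, adjusted p = 2.24e-08), a collagen crosslinking enzyme, had the largest decreases.

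Markers that moved with these genes are given here with their values. Of the 12 fibroblast markers, 1 was higher and 4 were lower after tBHP in PBS cells. PDGFRB changed by 0.60, LUM by -1.33, FAP by -0.35, COL3A1 by -0.34 and DCN by -0.26. The values of FAP in cNSF and fNSF cells were -0.18 and -0.061 and did not pass, nor did DCN in fNSF cells (-0.14, adjusted p = 0.0879). LUM changed by -1.18 in cNSF and by -0.67 in fNSF cells. For fNSF against PBS cells after tBHP, 1 of the 12 was higher, beside 0.139% of all genes called. Of the epithelial markers, KRT18 was lower in PBS and fNSF cells (-0.50 and -0.56) and did not pass in cNSF cells (-0.20, adjusted p = 0.113), and KRT19 was lower in fNSF cells (-0.60). Of the endothelial markers, TEK was lower in all 3 pre-incubations (-0.40, -0.68 and -0.53), and VWF was higher in PBS and fNSF cells (1.32 and 1.18) and did not pass in cNSF cells (0.72, adjusted p = 0.139). The sums of these markers in PBS cells ran from 2139 to 2347 (epithelial) and from 1286 to 1326 (endothelial) without tBHP, and from 1552 to 1880 and from 985 to 1019 with tBHP. Of the 7 mature smooth muscle markers, 5 were tested. In PBS cells 1 of them, DES, was higher after tBHP and 3 (LMOD1, MYOCD and SYNPO2) were lower. Their summed level ran from 8849 to 8928 normalized counts in PBS cells and from 6295 to 7448 after tBHP. Most of this sum was SMTN, the gene of smoothelin, with means of 6825 and 5570 (log2 change -0.30, adjusted p = 0.111). In fNSF cells SMTN was lower (-0.65, adjusted p = 0.00226), as were 4 of the 5 tested markers, and 0 were higher. MYOCD fell from 1526 ± 27.5 to 909 ± 15.4 normalized counts in PBS cells (log2 change -0.75, adjusted p = 9.60e-05), and changed by -0.81 and -0.72 in cNSF and fNSF cells. The part of these markers in the changes of the 10 genes was not tested.

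Some of the counts cannot be assigned to 1 gene with certainty, because the library kit named in the labels does not mark the strand. By GENCODE release 29, ACTA2 (chromosome 10, 88935074 to 88991339, minus strand) shares 380 bp of exon with FAS and 516 bp with ACTA2-AS1, both on the other strand. FAS rose from 764 ± 29.7 to 1466 ± 165 normalized counts after tBHP in PBS cells (log2 change 0.93, adjusted p = 5.78e-07), the opposite direction to ACTA2, and ACTA2-AS1 had a mean of at most 15.3 in any group. TAGLN (chromosome 11, 117199321 to 117204782, plus strand) shares 446 bp with PCSK7, whose log2 changes were -0.09, -0.14 and -0.19. TPM1 (chromosome 15, 63042632 to 63071915, plus strand) shares 2761 bp of exon with antisense genes, and MKL1 (chromosome 22, 40410281 to 40636702, minus strand) shares 9 bp with SGSM3. The exons of the other 6 genes overlapped no other gene. These are ACTG2 (chromosome 2, 73892314 to 73919865, plus strand), CNN1 (chromosome 19, 11538717 to 11550323, plus strand), TPM2 (chromosome 9, 35681992 to 35690121, minus strand), CALD1 (chromosome 7, 134744252 to 134970728, plus strand), MYL9 (chromosome 20, 36541484 to 36551447, plus strand) and SRF (chromosome 6, 43171299 to 43181507, plus strand), all on GRCh38.

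The genes whose levels followed those of ACTA2 most closely over the 18 libraries were NOP16 (Pearson's r = 0.99 of log2 values), PXDC1 (0.98), EVA1A, FAM64A and ADM (each 0.98), out of 10303 genes with a mean of at least 100. Within the 9 libraries without tBHP these values were between 0.33 for ADM and 0.83 for FAM64A, and within the 9 with tBHP between 0.89 for FAM64A and 0.98 for NOP16. For SRF they were DNAAF5 (0.98), MAP2K3 (0.98), ARSI (0.97), GRWD1 (0.97) and HYAL2 (0.97), with values between -0.11 for GRWD1 and 0.71 for MAP2K3 without tBHP and between 0.92 and 0.96 with it. For TAGLN they were DAPK3 (0.98), DGCR6L (0.98), POLD2 (0.98), TSR3 (0.98) and R3HCC1 (0.98), and for CNN1 they were MAD1L1 (0.96), IMPDH1 (0.95), SRM (0.95), ZYX (0.95) and FSTL3 (0.95). Without tBHP the values for TAGLN lay between 0.31 and 0.84 and those for CNN1 between 0.63 and 0.85, and with tBHP between 0.98 and 0.996 and between 0.97 and 0.98. These libraries share depth and the GC trend given above, and the values of r are descriptions.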

How the data were processed

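RNA of 18 IMR90 libraries (6 groups of 3, grouped by their labels) was sequenced by the authors as single-end reads after TruSeq RNA V2 preparation. The submitters' processing notes name Trimmomatic 0.32, STAR 2.5.2b, featureCounts from Subread 1.5.0-p3, DESeq2 and GRCh38.p7, and the annotation release is not given in the sources used here. The deposited signal is, for 56269 genes, the number of reads divided by the DESeq2 size factor of the library, and 100% of the values were whole reads within 0.01 of a read. The p-value and q-value columns and the rank score deposited by the authors hold their own comparison and were not used.

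The 10 genes and all lists were chosen with earlier results of these data known. The 10 genes were named throughout, with the 3 genes of largest change per list in PBS cells, the genes of any count of 5 or fewer in PBS cells, and the 5 genes most like ACTA2, CNN1, TAGLN and SRF. The overlapping genes, MYH11 and the markers listed as examples were named after their values were seen. One further list is not reported here. Genes with a mean of at least 10 (13686) entered limma 3.58.1 in R 4.3.3 on log2 of the value plus 1. The fit had a mean-variance trend and the 6 groups as its terms, and two-sided p-values were adjusted by the Benjamini-Hochberg method at a threshold of 0.05. Fold changes are on this scale. All 18 libraries shared 1 estimate of the spread. The study states that its replicates are biological, and the labels do not name the cultures they came from. Between replicates of a group, a chi-square of the counts, divided by its degrees of freedom, was at least 1.45, so none was a copy. It was at most 2.55 without tBHP. With tBHP it reached 64.84 for fNSF replicates 2 and 3, 32.43 for cNSF replicates 1 and 3 and 16.93 for PBS replicates 1 and 2. Reads ranged from 20261103 to 26287660 per library.

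Alternatives were pseudocounts of 0.1 and 5, no filter, a minimum mean of 50, TMM and quantile scaling, removal of a spline trend (5 degrees of freedom) of GC content and length over the 12789 genes with GENCODE 29 annotation (93.4%), a replicate block, only the groups compared, each library left out, and, on the recovered reads, edgeR 4.0.16 and DESeq2 1.42.0. Leaving out both cNSF replicate 3 and fNSF replicate 2 after tBHP, and the ratios, were added after seeing the data. The scripts were tested on simulated data.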

Additional observations from a re-analysis of the deposited data

How the results depend on the processing

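The decreases of ACTA2, TPM1 and CALD1 after tBHP kept their direction and passed the test in all 3 pre-incubations under each alternative, as did that of SRF in PBS and fNSF cells, while SRF in cNSF cells missed the threshold under 3 alternatives. With the GC and length trend removed, 8, 7 and 8 of the 10 genes passed in PBS, cNSF and fNSF cells, most of them lower. Of all genes, 57.8%, 56.6% and 56.1% passed, with 3770, 3627 and 3650 of 12789 lower. This alternative turned the changes of MYL9 to -0.0695, -0.015 and -0.052, those of CNN1 to -0.24 and -0.28 in PBS and cNSF cells, and those of TAGLN to -0.22 and -0.048. For cNSF against fNSF after tBHP it turned SRF to -0.13, MKL1 to -0.12, MYL9 to -0.043 and CNN1 to -0.012. Quantile normalization turned TAGLN to -0.23 and -0.11 in PBS and cNSF cells, TPM2 and MYL9 to -0.019 and -0.085 in fNSF cells, and TPM1 in cNSF against fNSF after tBHP to -0.023. TAGLN in PBS cells was -0.00079 with TMM scaling, and ACTG2 in cNSF cells was 0.056 with edgeR. Within the compared groups alone, 1 gene passed for cNSF against fNSF without tBHP, CALD1. The cause of these shifts was not tested.

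Leaving out each library in turn gave 5 to 6 of the 10 genes in PBS, 5 to 7 in cNSF and 4 to 7 in fNSF cells after tBHP, 0 to 5 for fNSF against PBS and 0 to 9 for cNSF against fNSF after tBHP. With all libraries, 51.1%, 50.8% and 41.9% of all genes passed for the responses, and their shares without single libraries are not given. Without fNSF replicate 3 with tBHP, 29.4% of all genes passed for fNSF against PBS and 40.8% for cNSF against fNSF. Without fNSF replicate 2 with tBHP, 0% passed for cNSF against fNSF. The responses whose sign changed when a library was left out ran, in PBS cells, from -0.062 to 0.065 for TAGLN and from -0.036 to 0.098 for CNN1. In cNSF cells they ran from -0.063 to 0.035 for ACTG2 and from -0.0096 to 0.13 for CNN1. In fNSF cells they ran from -0.30 to 0.064 for TAGLN, from -0.34 to 0.015 for CNN1 and from -0.13 to 0.17 for MYL9. TPM1 in cNSF against fNSF after tBHP ran from -0.0015 to 0.058. Without both cNSF replicate 3 and fNSF replicate 2 after tBHP, 8, 7 and 7 of the 10 genes passed (62.3%, 54.9% and 55.4% of all genes). CNN1 was then -0.0096 in cNSF and 0.015 in fNSF cells, and TAGLN 0.064 in fNSF cells. The replicate numbers were not taken as pairs, since correlations of the deviations of same-numbered libraries ran from -0.12 to 0.33. With the replicate block the counts were 6, 7 and 5 and elsewhere 0, and it changed no call of the 10 genes. Of 13686 genes, 7228, 7176 and 5944 then passed for the responses, and at most 61 in any other comparison.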
